A study of Mus musculus with 12 samples.

Results

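Peaks of the RNA-binding protein SLM2 were described in the 4 genes that encode the subunits of the AMPA-type glutamate receptor, *Gria1*, *Gria2*, *Gria3* and *Gria4*. A peak was taken as a member when its centre lay within the annotated span of one of these genes (GENCODE vM21 on GRCm38, the build also called mm10) and on the gene's own strand. This gave 26 of the 2235 deposited peaks, 24 of 2057 (1.17%) in whole brain and 2 of 178 (1.12%) in hippocampus. The data are enhanced cross-linking and immunoprecipitation (eCLIP), in which UV light fixes a protein to the RNA it touches and the RNA that comes down with the protein is sequenced beside a size-matched input. Wild-type mice aged 30 days gave 2 eCLIP and 2 input libraries of whole brain and as many of hippocampus. *Slm2* KO hippocampus also has 2 eCLIP and 2 input libraries, which were not analysed here, and the labels name no allele or agent that the wild-type groups share. All groups were cross-linked with 3 UV exposures of 400 mJ/cm² each. A whole-brain lysate came from a single brain and a hippocampal lysate from pooled hippocampi, so every cell type of the tissue contributed RNA. The lists hold no expression values, so the markers of either tissue were not measured here, and in such bulk tissue fewer cells that carry a bound transcript cannot be told apart from less bound RNA per cell. Each peak carries 3 values computed by the authors: the log2 fold change of eCLIP over input, the −log10 p of the same comparison, and the −log10 of the irreproducible discovery rate (IDR), which measures how well both replicates ranked the peak. The lists hold peaks with a log2 fold change and a −log10 IDR of at least 2.

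AMPA receptors carry most of the fast excitatory current at synapses of the brain and are assembled as tetramers of GluA1 to GluA4, the products of *Gria1* to *Gria4*. Each gene holds a pair of mutually exclusive exons, flip and flop, which encode alternative versions of a short stretch of the ligand-binding domain and set how fast the receptor desensitises. A further exon, that of the Q/R site, encodes part of the ion pore, and in *Gria2* the codon for this site is edited in the RNA. SLM2, the product of *Khdrbs3*, is a nuclear splicing regulator of the STAR family, which binds A- and U-rich elements such as UUAA and UAAA in pre-mRNA.

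*Gria2* and *Gria4* carried most of these peaks. In whole brain *Gria2* held 12 peaks, *Gria4* 10 and *Gria3* 2, and the list has none in *Gria1*. In hippocampus *Gria1* and *Gria2* held 1 peak each, and the list has none in *Gria3* or *Gria4*. Each of the 24 whole-brain peaks had a UUAA or UAAA no more than 50 nt from its centre, against 83.6% of the whole-brain list. Within the peak itself 22 of the 24 held one (91.7%), against 82.0% of the list, and peaks 7 and 12 of *Gria2* held none. Most peaks fell into 3 settings, which are shown by their sequences: a group of peaks in a single intron of *Gria2*, peaks in the introns that hold the flip and flop exons of *Gria3* and *Gria4*, and peaks in the long 5′ introns of *Gria2* and *Gria4*. Sequences were read from the RefSeq GRCm38 genome on the transcribed strand and are written as RNA, 5′ to 3′.

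The first set shows 3 of the 6 *Gria2* peaks of intron 11, with each UUAA or UAAA in capitals. Peak 6, at chr3:80704092-80704255 on the minus strand, had the highest −log10 p of all 26 members and holds 10 of these tetramers. Peak 5, at chr3:80704301-80704384, holds 5, and peak 7, at chr3:80704055-80704085, is 31 nt long and holds none.
Gria2 whole brain peak 5: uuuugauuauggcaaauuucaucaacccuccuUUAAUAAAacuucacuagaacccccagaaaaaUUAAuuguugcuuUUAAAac
Gria2 whole brain peak 6: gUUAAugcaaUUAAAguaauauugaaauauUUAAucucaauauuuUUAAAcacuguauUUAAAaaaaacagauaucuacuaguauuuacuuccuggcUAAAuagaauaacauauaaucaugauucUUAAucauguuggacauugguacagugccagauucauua
Gria2 whole brain peak 7: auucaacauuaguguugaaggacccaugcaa

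The second set shows 2 peaks between or beside flip and flop exons, again with UUAA or UAAA in capitals. Peak 9 of *Gria4*, at chr9:4426819-4426950 on the minus strand, lies just past the flip exon. Peak 2 of *Gria3*, at chrX:41663920-41664010 on the plus strand, lies between its flop and flip exons.
Gria4 whole brain peak 9: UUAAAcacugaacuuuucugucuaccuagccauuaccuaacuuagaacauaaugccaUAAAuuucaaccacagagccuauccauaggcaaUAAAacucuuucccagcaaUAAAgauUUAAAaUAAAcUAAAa
Gria3 whole brain peak 2: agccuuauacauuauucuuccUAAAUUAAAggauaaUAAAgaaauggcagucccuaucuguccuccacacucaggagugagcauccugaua

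The third set gives the flip exon of *Gria4*, beside which peak 9 lies, and the flop exon of the gene, with the bases that differ between them in capitals. The flip exon is at chr9:4427030-4427144 and the flop exon at chr9:4432773-4432887, both on the minus strand, and they differ at 31 bases.
Gria4 flip exon: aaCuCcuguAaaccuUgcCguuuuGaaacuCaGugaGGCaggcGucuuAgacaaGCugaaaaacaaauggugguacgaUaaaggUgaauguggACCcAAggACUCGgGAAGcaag
Gria4 flop exon: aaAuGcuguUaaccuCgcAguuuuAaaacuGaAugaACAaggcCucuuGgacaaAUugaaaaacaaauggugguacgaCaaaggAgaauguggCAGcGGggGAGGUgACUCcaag

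The fourth set shows 2 peaks of the long introns with different sequence. Peak 1 of *Gria4*, at chr9:4752305-4752379 on the minus strand, had the highest log2 fold change of the whole-brain members and holds 5 UUAA or UAAA, in capitals. Peak 3 of *Gria4*, at chr9:4743425-4743519, holds 1. Of the bases within 50 nt of its centre, 95.05% are marked as repeat in the genome, against 45.54% at peak 1.
Gria4 whole brain peak 1: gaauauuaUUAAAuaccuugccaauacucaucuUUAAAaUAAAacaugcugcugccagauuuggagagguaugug
Gria4 whole brain peak 3: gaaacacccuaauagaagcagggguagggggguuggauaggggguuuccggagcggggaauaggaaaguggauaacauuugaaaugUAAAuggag

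The last sequence is that of the hippocampal *Gria2* peak, at chr3:80767721-80767854 on the minus strand, again with UUAA or UAAA in capitals.
Gria2 hippocampus peak 1: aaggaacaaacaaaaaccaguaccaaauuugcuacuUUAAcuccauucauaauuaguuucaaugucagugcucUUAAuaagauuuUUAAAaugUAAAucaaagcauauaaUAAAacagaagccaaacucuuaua

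The first comparison was of the number of peaks that each subunit gene holds for its length. *Gria2*, the shortest of the 4 genes at 121 kb (chr3:80681450-80802835, minus strand), had 9.89 whole-brain peaks per 100 kb. *Gria4*, the longest at 378 kb (chr9:4417896-4796234, minus strand), had 2.64 per 100 kb, and *Gria3*, at 278 kb (chrX:41400854-41678601, plus strand), had 0.72. *Gria1* spans 319 kb (chr11:57011387-57330244, plus strand) and has no whole-brain peak. *Gria2* therefore held the most whole-brain peaks both in number and per length, although it is the shortest. This count includes peaks that lie close together: 6 of its 12 fall within 972 nt and 2 more within 668 nt. When peaks with at most 1000 nt between neighbours are joined, each of the 10 *Gria4* peaks still stands alone. *Gria4* then has more separate groups than *Gria2*. Neighbouring genes in this order cannot be tested against each other because each tissue has 1 merged list without replicate spread.

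A peak was held by 3 of the 4 subunit genes in whole brain, against 1.92% of all 21951 protein-coding genes and 15.1% of the 1943 that are at least as long as *Gria2*. Among the 1547 protein-coding genes no shorter than *Gria2* and no longer than *Gria4*, 9.76% held a whole-brain peak. The comparison genes, here and in later paragraphs, were not matched for expression, which the lists do not give. As many peaks as *Gria2* or more were held by 4 of these 1547 genes (0.259%), *Gria2* included. As many as *Gria4* or more were held by 7 (0.452%), with *Gria4* counted. Close peaks were counted singly here, not as joined groups. *Gria3* was less apart, since 57 genes (3.68%) had at least its 2 peaks. In hippocampus 2 of the 4 subunit genes held a peak, against 0.378% of all protein-coding genes. The share was 3.09% of those at least as long as *Gria2* and 1.23% of those in the length range. Both subunit genes held only 1 peak. That of *Gria1* was centred in sequence marked as repeat, and that of *Gria2* had a −log10 p of 1.15.

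**Figure D1:**
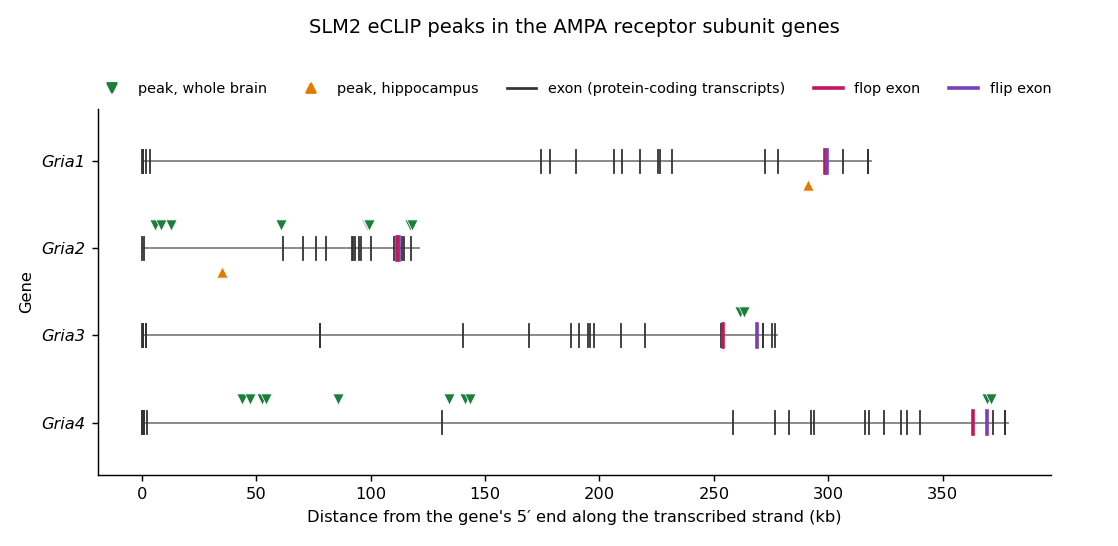
Peaks along the 4 AMPA receptor subunit genes, drawn to a common scale in kb from the 5′ end of each gene. Vertical bars are exons of protein-coding transcripts, with flop and flip exons in colour, green triangles above the line are whole-brain peaks and orange triangles below it hippocampal peaks. The 12 *Gria2* and 10 *Gria4* peaks of whole brain fall in a few introns, and *Gria1* has only its 1 hippocampal peak.

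The peaks were not evenly placed along the genes. In *Gria2*, whose longer protein-coding transcript has 16 exons, 4 peaks lay in intron 2, the longest of its 15 introns (60.4 kb, 49.8% of the gene), 6 in intron 11 (4.23 kb, 3.49% of the gene) and 2 in the 3′ UTR in exon 16. Per 100 kb these are 6.62 peaks in intron 2 and 142 in intron 11. In *Gria4*, 5 peaks lay in intron 3 (128.8 kb) and 3 in intron 4 (126.9 kb), the longest of its 16 introns, which together with the 2 peaks of intron 15 (8.32 kb) account for all 10. Per 100 kb these are 3.88 peaks in intron 3 and 2.36 in intron 4, against 2.64 over the whole gene, and 24 in intron 15. The numbers of peaks in introns 3 and 4 were thus near what the length of these introns alone would give. Their positions within the introns were not even. Peaks 1 to 4 lay 41468 to 51847 nt downstream of exon 3, and peaks 6 to 8 lay 3017 to 11913 nt downstream of exon 4. Both *Gria3* peaks were in intron 13 (15.2 kb, 5.49% of the gene).

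Intron 11 of *Gria2* held 6 of the 26 members within 972 nt (chr3:80703413-80704384), of which the peaks cover 447 nt. This intron follows exon 11, which encodes the Q/R site (the exon was looked at after the positions had been seen), and the peak centres lay 2546 to 3444 nt downstream of that exon and 1686 to 788 nt upstream of exon 12. Peaks 5 to 10 had log2 fold changes over input of 2.31, 2.63, 2.18, 2.40, 2.01 and 2.10, so that peak 6 was the highest of the group and peak 9 stood close to the authors' threshold of 2. Their −log10 p values, in the same order, were 8.36, 15.5, 3.37, 4.28, 3.78 and 4.61. By p, peak 6 was the 37th of 2057 whole-brain peaks and peak 5 the 188th, while by fold change peak 6 was the 914th. The 6 peaks hold 22 UUAA or UAAA in all, 10 of them in peak 6 and none in peak 7, as the printed sequences show. Groups of this size are not particular to *Gria2*: when peaks with at most 1000 nt between neighbours are joined, 16 groups of the whole-brain list hold 6 peaks or more, and the most is 24.

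The 4 peaks of *Gria2* intron 2 lay toward its ends. Peak 1 (log2 fold change 2.12, −log10 p 3.03) lay 4448 nt downstream of exon 2, peak 2 (2.43, 4.38) 7357 nt and peak 3 (2.69, 6.46) 11788 nt downstream of it. Peak 4, with the highest log2 fold change of the gene (2.86, −log10 p 4.02), lay at the other end of the intron, 645 nt upstream of exon 3. Most of this intron, between peaks 3 and 4, thus had no whole-brain peak.

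Both peaks of the *Gria2* 3′ UTR (peak 11, log2 fold change 2.14 and −log10 p 4.05; peak 12, 2.49 and 3.32) lie in an exon of 7265 nt that only the longer of the gene's protein-coding transcripts, the one that carries the flop exon, contains in full. They fall 2208 and 2814 nt past the annotated end of the other, which carries the flip exon. No other member had its centre in an exon.

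In *Gria4* the peaks nearest to an exon lay in the intron that holds the flip exon. The flop exon comes first along the transcript in all 4 genes, and in *Gria4* the flip exon follows it after 5628 nt. The centre of peak 9 (log2 fold change 2.88, −log10 p 5.56) lay 146 nt downstream of the flip exon, with its near edge 80 nt away, and 5889 nt downstream of the flop exon. Of the 26 members this was the only one within 500 nt of a flip or flop exon, and it holds 9 UUAA or UAAA in 132 nt, 6 of them downstream of its centre. Peak 10 (chr9:4425220-4425289, log2 fold change 2.62, −log10 p 3.27) lay 1776 nt downstream of the flip exon and 800 nt upstream of exon 16.

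The remaining 8 *Gria4* peaks were far upstream of this exon pair, with peak 8 the nearest at 219968 nt from flop and peak 1 the farthest at 319455 nt. In intron 3, peaks 1 to 4 had log2 fold changes of 2.90, 2.22, 2.72 and 2.28 and peak 5 one of 2.7, and they lay 41468 to 51847 nt from the nearest exon. Peaks 6, 7 and 8 of intron 4 had log2 fold changes of 2.36, 2.51 and 2.00, the last being the lowest of the 24 whole-brain members, and lay 3017, 9859 and 11913 nt downstream of exon 4. The −log10 p values of these 8 peaks ran between 2.87 at peak 5, the lowest of the whole-brain members, and 5.52 at peak 3. No exon of any annotated transcript lay within 500 nt of them.

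*Gria3* had its 2 peaks between the flop and the flip exon, which are 14576 nt apart. Peak 1 (log2 fold change 2.14, −log10 p 5.48) was centred 7525 nt downstream of flop and 7052 nt upstream of flip, and peak 2 (2.43, 3.02) 9041 nt and 5536 nt. Both peaks were thus near the middle of the intron that separates the exons, and they hold 6 and 4 UUAA or UAAA.

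In *Gria2* and *Gria1* no member was near the flip and flop exons, which are only 801 nt apart in *Gria2* and 724 nt in *Gria1*. The nearest whole-brain peak of *Gria2* was peak 11 of the 3′ UTR, 4817 nt downstream of flip and 5733 nt downstream of flop. On the upstream side the nearest was peak 10 of intron 11, 12010 nt before flop. The hippocampal *Gria1* peak lay 7084 nt upstream of flop, in intron 13, and the hippocampal *Gria2* peak 76.4 kb upstream of flop.

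**Figure D2:**
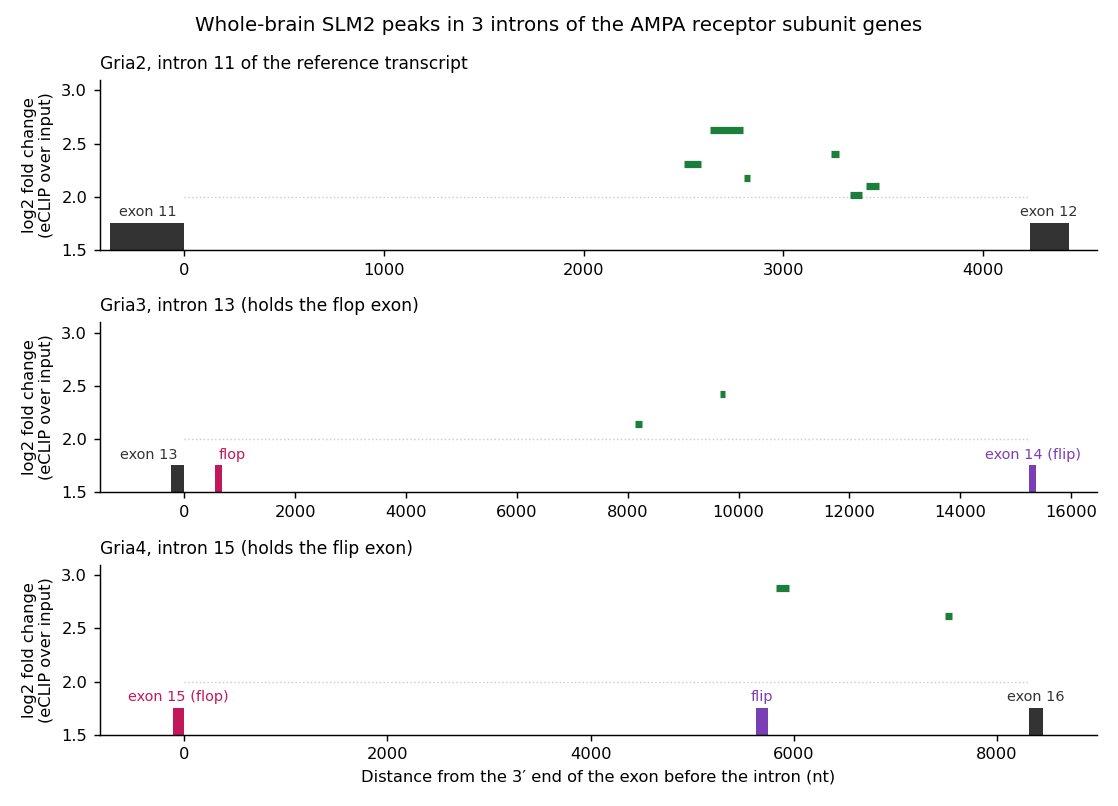
Whole-brain peaks in *Gria2* intron 11, *Gria3* intron 13 and *Gria4* intron 15, plotted by distance in nt from the exon before the intron (horizontal) and log2 fold change of eCLIP over input (vertical). Each green bar spans a peak, boxes on the axis are exons with flop and flip in colour, and the dotted line is the authors' threshold of 2. The *Gria4* peak at a log2 fold change of 2.88 lies 146 nt past the flip exon, and the 6 *Gria2* peaks lie between 2546 and 3444 nt past exon 11.

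Over all exons of any annotated transcript, 5 of the 24 whole-brain members (20.8%, exact 95% binomial interval 7.13 to 42.2, which covers counting error only) had their centre in an exon or within 500 nt of one. In the whole list 186 of 2057 peaks (9.04%, 7.84 to 10.4) did. The 5 were peak 9 of *Gria4*, the 2 peaks of the *Gria2* 3′ UTR, and peaks 5 and 6 of *Gria2* intron 11, whose nearest exon, 297 and 466 nt away, belongs only to the retained-intron transcript *Gria2-204*. With exons of protein-coding transcripts alone, 3 remained. The median distance of the intronic members from the nearest exon was 4276 nt, against 26360 nt over all intronic peaks of the list. The genes differed widely in this: the median was 829.5 nt in *Gria2*, and 26690 nt in *Gria4*, close to that of the list.

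By fold change the whole-brain members were not among the strongest peaks of the list. Their log2 fold changes ran between 2.00 and 2.90 with a median of 2.42, against a median of 2.56 over the 2057 peaks. None reached a log2 fold change of 3, which 464 of the 2057 peaks (22.6%) did. The median −log10 p was 4.27, against 4.32 over the list. By gene the median log2 fold change was 2.36 in *Gria2*, 2.28 in *Gria3* and 2.57 in *Gria4*, and the ranges of the 3 genes overlapped. The members were also somewhat shorter, with a median of 83 nt against 106 nt.

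**Figure D3:**
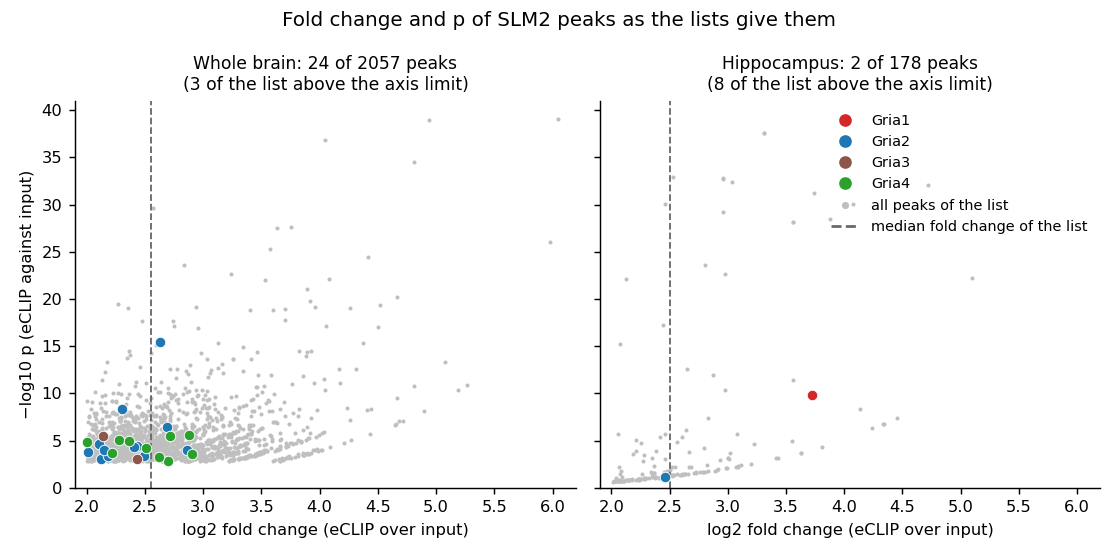
log2 fold change of eCLIP over input (horizontal) against −log10 p (vertical) for every peak of the whole-brain list (left) and the hippocampal list (right), with the members coloured by gene. Grey points are all peaks and dashed lines the median fold change of each list; 3 whole-brain and 8 hippocampal peaks lie above the axis limit of 40. All whole-brain members lie at a log2 fold change of 2.90 or below, and the *Gria1* peak of hippocampus lies at 3.72.

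The hippocampal members were unlike each other. The *Gria1* peak had a log2 fold change of 3.72, the 12th of 178, and a −log10 p of 9.78. It lay in intron 13 (21.1 kb), 13190 nt downstream of exon 13. It holds no UUAA or UAAA in its 133 nt, and every base within 50 nt of its centre is marked as repeat in the genome. The *Gria2* peak had a log2 fold change of 2.46 and a −log10 p of 1.15, below the value of 2 that 95 of the 178 hippocampal peaks (53.4%) also missed. It lay in intron 2, as 4 whole-brain peaks did, and holds 6 UUAA or UAAA. Of the bases within 50 nt of its centre, 51.5% are marked as repeat.

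No member was shared by both tissues. None of the 24 whole-brain members overlapped a hippocampal peak by 1 nt or more, and 0 of 24 allows a share of up to 12.5% by 3 counts, or 14.2% by the exact interval. In the whole lists 59 of 2057 whole-brain peaks (2.87%) overlapped 1 of the other list, and 55 of 178 hippocampal peaks (30.9%) did. The hippocampal *Gria2* peak was 22070 nt from the nearest whole-brain peak, centre to centre. The lists do not give the sequencing depth, so tissue and depth cannot be told apart here and a peak missing from the hippocampal list cannot be read as a lack of binding.

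UUAA and UAAA, written together as UWAA with W for U or A, were counted on the transcribed strand by their starts in the 98 positions within 50 nt of each centre and in flanks 450 to 550 nt to both sides. Overlapping copies count separately, so that UUAAA gives 2 starts. At the whole-brain members UWAA started at 4.51 of 100 positions (3.70 to 5.42), against 2.23 in their flanks. This interval treats the pooled positions as independent, which overlapping copies are not, and does not measure the spread between peaks. Over the whole list the densities were 3.59 at peaks and 1.80 in flanks, so in both the density was higher at peaks than beside them. By gene the densities at peaks and in flanks were 4.59 and 2.38 in *Gria2*, 4.59 and 2.81 in *Gria3*, and 4.39 and 1.94 in *Gria4*. The peak exceeded its flanks in 19 of the 24 members (79.2%, 57.8 to 92.9), against 66.5% of the list, and the window of 24 of 24 members (85.8 to 100) held a UWAA, against 83.6% of windows over the list.

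The members ranged from 1.02 per 100 positions at peak 3 of *Gria4* to 8.16 at peak 2 of *Gria4* in the same intron. Peak 3 of *Gria4*, peaks 8 and 12 of *Gria2* and peak 2 of *Gria3* had fewer UWAA than their flanks, and peak 10 of *Gria4* had as many, 4.08. Peak 9 of *Gria4*, beside the flip exon, had 3.06 at the centre and 1.53 in its flanks, with most of its tetramers toward its 3′ end. A flank of 4 of the 24 members overlapped another peak. AU content, looked at after the motif counts had been seen, had medians of 67.3% at the members and 65.3% in their flanks, against 66.3% and 62.4% over the list.

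The longer element UUWAAAA, counted as UUUAAAA or UUAAAAA, was found within 50 nt of the centre at 11 of the 24 whole-brain members (45.8%, 25.6 to 67.2), against 389 of 2057 peaks (18.9%, 17.2 to 20.7). These were 5 peaks of *Gria2*, 5 of *Gria4* and 1 of *Gria3*. The density was 0.746 per 100 positions at the members and 0.175 in their flanks, or 17 starts and 8 starts, and over the list it was 0.298 at peaks and 0.122 in flanks. Of the 13 members without the element within 50 nt of the centre, 4 held it in their flanks. They were peak 2 of *Gria3* with 4 starts, peak 9 of *Gria4* with 2, and peaks 3 and 8 of *Gria2* with 1 each. Peak 9 of *Gria4*, beside the flip exon, also holds 1 copy within the peak itself, farther than 50 nt from its centre. Repeats were frequent in these windows: 14 of the 24 windows were masked as repeat over more than 20% of their bases, against 50.9% of the list. In the 8 members that kept a window and a flank without this, UWAA stood at 3.70 at peaks and 2.41 in flanks, and UUWAAAA at 0.395 and 0.150.

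**Figure D4:**
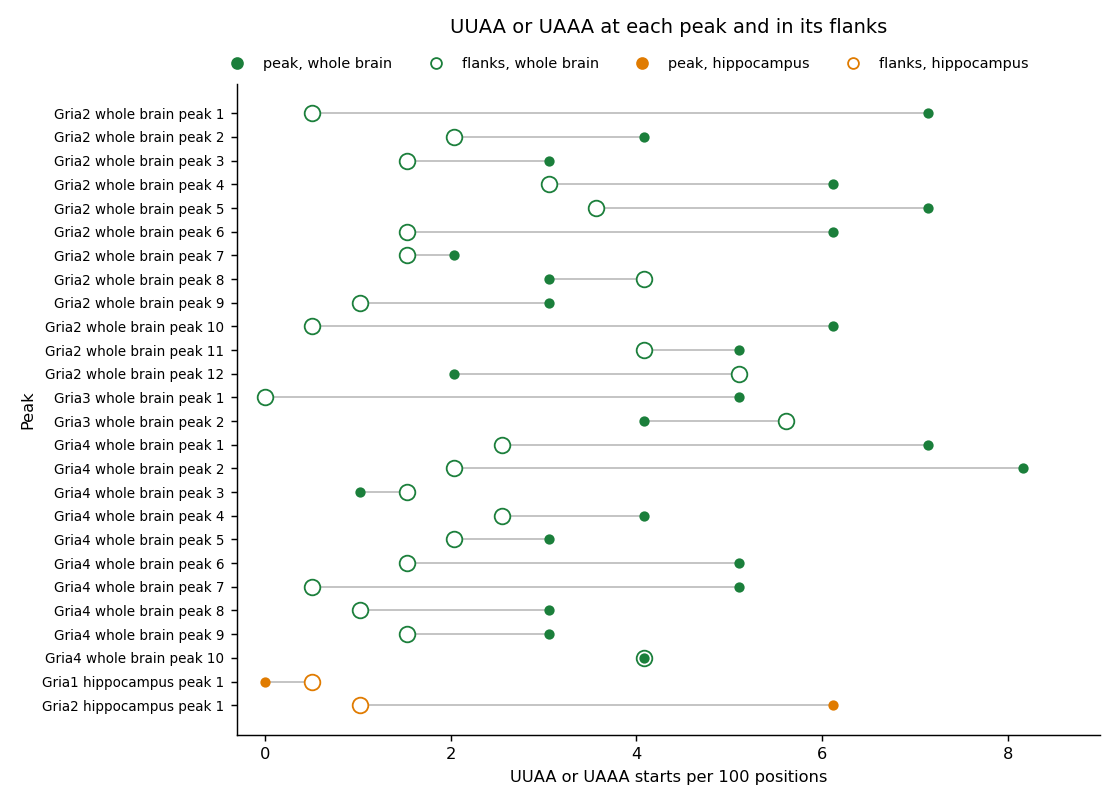
Starts of UUAA or UAAA per 100 positions (horizontal) within 50 nt of the centre of each member (filled points) and in its flanks 450 to 550 nt away (open points), in green for whole brain and orange for hippocampus. The filled point lies right of the open one in 19 of the 24 whole-brain members, and the *Gria1* peak of hippocampus is at 0.

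The subunits were set beside 12 genes of the NMDA and kainate receptors, the *Grin* and *Grik* genes. Of these 12 genes, 5 held a peak in whole brain (41.7%) and 2 in hippocampus, against 1.92% and 0.378% of all protein-coding genes. Of the 7 at least as long as *Gria2*, 4 held a whole-brain peak (57.1%), against 15.1% of all protein-coding genes of that length. Among kainate receptor genes of that length it was 3 of 4, the same as among the AMPA receptor genes. *Grik2*, which encodes a kainate receptor subunit, held the most, 22 peaks or 3.17 per 100 kb, with log2 fold changes up to 4.38, above every whole-brain AMPA receptor peak. *Grin1*, the gene of the obligatory NMDA receptor subunit, *Grin2a*, *Grik1* and *Grik3* held 1 each. Summed over genes, the AMPA receptor genes had 2.19 whole-brain peaks per 100 kb, against 1.33 for kainate and 0.171 for NMDA receptor genes, and 0.309 for all protein-coding genes at least as long as *Gria2*. *Gria2* alone stood at 9.89, above each of these 12 genes. In hippocampus *Grik2* held 3 peaks and *Grin2a* 2.

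**Figure D5:**
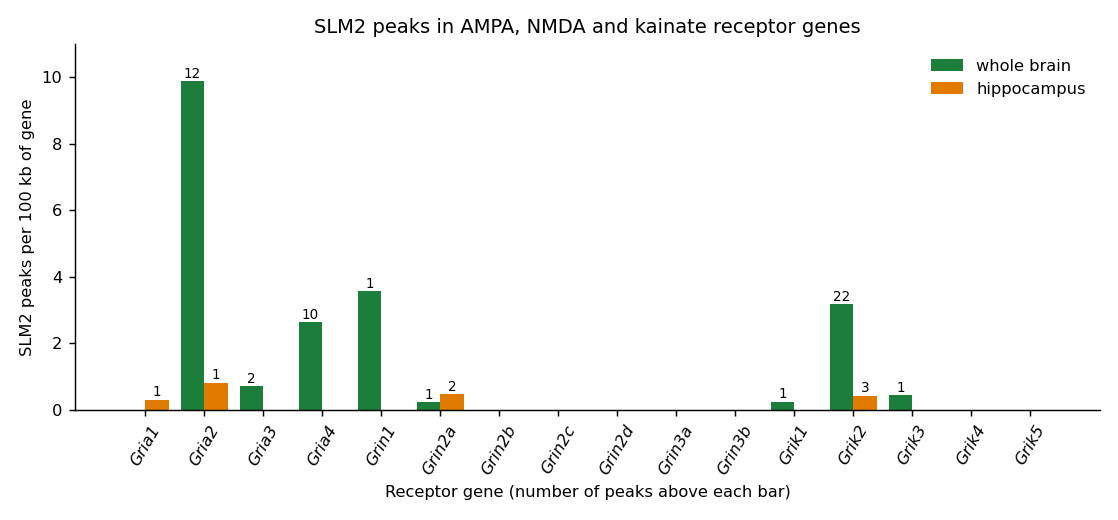
SLM2 peaks per 100 kb of gene (vertical) in 16 genes of AMPA, NMDA and kainate receptors, with whole brain in green and hippocampus in orange and the number of peaks above each bar. *Gria2* has the highest bar, at 9.89 in whole brain, and *Grik2* the most peaks, 22.

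Genes of proteins that work with AMPA receptors were counted as well. From a list of 38 auxiliary subunits, assembly and trafficking factors, anchoring proteins, pentraxins and RNA-editing enzymes, 3 held a whole-brain peak (7.89%), against 1.92% of all protein-coding genes. All 3 were among the 12 genes of the list at least as long as *Gria2* (25.0%), against 15.1% of all protein-coding genes of that length. *Dlg1*, which encodes the scaffold SAP97, held 3 peaks, *Olfm3*, which encodes a secreted olfactomedin, 2, and *Cacng2*, which encodes the auxiliary subunit stargazin, 1. Their highest log2 fold changes were 2.66, 2.31 and 2.73. In hippocampus *Dlg4*, which encodes the scaffold PSD-95, held 1 peak of log2 fold change 2.09, and the whole-brain list has none there. *Adarb1*, the gene of the enzyme that edits the Q/R site, had no peak in either list.

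The genes whose peak numbers per length were most like those of *Gria2* over both tissues, among 91 genes with at least 4 whole-brain peaks, were *Gpm6a* (8.49 per 100 kb in whole brain and 0.943 in hippocampus, distance 0.218 on the log2 scale of peaks per 100 kb plus 1) and *Syt1* (10.7 and 1.17, distance 0.271). *Gria2* itself had 9.89 and 0.824. For *Gria4*, at 2.64 and 0, they were *Mtss1* (2.84 and 0, distance 0.0765) and *Kcnh7* (2.85 and 0, distance 0.0804). This likeness rests on 2 tissues and 1 count in each.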

How the data were processed

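SLM2 eCLIP peaks were read from 1 deposited list per tissue, each merged by the authors from 2 wild-type eCLIP replicates over their size-matched inputs. Per the submitters' processing notes, reads were trimmed with cutadapt 3.4, mapped to mm10 with STAR 2.7.9 and freed of duplicates with UMI-tools 1.1.1, and the study's methods name CLIPper for peak calls and IDR for merging. The deposited log2 fold change of eCLIP over input was computed by the authors. The −log10 p of each peak is also the authors' value. The −log10 IDR is treated as a score, likewise computed by the authors. The lists hold no column names, read counts or depths. Peak starts were taken as counted from 0 in the files, and positions here count from 1; a shift of 1 nt is possible, since 84 peaks follow a neighbour after a gap of 1 nt.

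Members were assigned to genes by peak centre and strand with GENCODE vM21, and 1 reference transcript per gene gave exon and intron numbers. Flip and flop exons were the neighbouring pair of equal length told apart by the encoded motif LKLSE or LKLNE, shortened by a residue from the motif first written because *Gria4* flip reads otherwise. Distances run from the peak centre. Sequence came from the RefSeq GRCm38 genome, in which lower case marks repeats. Adaptor runs were matched to the ligated oligonucleotides of the library protocol, and no member held 10 nt or more.

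Members and lists were chosen with earlier results of these data known. Named genes were *Gria1* to *Gria4*, partners and NMDA and kainate receptor genes with a peak, and the 2 most similar genes of each subunit gene with at least 4 whole-brain peaks. With 1 merged list per tissue, no test was made. Shares carry exact (Clopper-Pearson) 95% binomial intervals, which cover counting error only and treat peaks as independent, and 0 of n allows 3 counts. Procedures were checked on simulated data. Python 3.11.15, numpy 2.4.6, pandas 2.3.3, scipy 1.17.1, matplotlib 3.10.9 and samtools 1.23.1 were used. A receptor gene and the sequences of some members are not reported here. *Slm2* KO libraries, tracks and tag clusters were not analysed here.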

Additional observations from a re-analysis of the deposited data

How the results depend on the processing

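Of 98 alternative values for 32 results, 77 stayed within their limits (1.5 times a count or distance, the 95% interval of a density or median), 21 moved and 0 reversed. Only motif densities could reverse, since counts, distances and medians were labelled as kept or moved alone. Some values could not move, such as counts of 0 under a stricter filter. Nor could whole-brain values at a −log10 p of at least 2, as the lowest in that list was 2.82. With a minimum log2 fold change of 3, the AMPA receptor genes kept 0 whole-brain peaks and 1 hippocampal peak, that of *Gria1*, and partner genes with a peak numbered 0 in both tissues. A −log10 IDR of at least 2.5 left 12 of the 24 whole-brain peaks, 6 in *Gria2*, 1 in *Gria3* and 5 in *Gria4*, and a −log10 p of at least 2 left 1 hippocampal peak and 0 hippocampal partner genes. Of the whole-brain members, 3 were within 500 nt of an exon with protein-coding transcripts alone, and 11 were within 1000 nt of any exon, against 5 in the report. Measured at the nearest edge, the *Gria4* peak lay 80 nt from flip. Without masked windows, the excess at peaks over flanks was 1.29 per 100 positions for UWAA (2.27 with all windows) and 0.244 for UUWAAAA (0.57), over 8 members. With windows on the 5′ end, the 2 hippocampal members had a UUWAAAA difference of 0.0. Ignoring strand or counting any overlap kept each count of AMPA receptor gene peaks. Leaving out adaptor peaks could not change these counts, as no member held an adaptor run of 10 nt. No paired analysis was possible because each tissue has 1 merged list without replicate columns; for the same reason no replicate could be left out.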
